A study of Mus musculus with 4 samples.

Results

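The genes described here are 10 cytokine, alarmin and receptor genes of the gut lining, of 22911 genes named on the array: Il15, Il15ra, Il7, Tslp, Il18, Il33, Il1a, Il1b, Il4ra and Il13ra1. They were picked by name with values of these same arrays already known, so their counts and differences are descriptions, and all 16 probes whose accession belongs to them are given. Sorted tumour cells of the mouse intestine gave the RNA, which was labelled with Cy3 and read on 4 Agilent arrays, 1 for each of 4 populations. All cells were EpCAM+, and the design text names IL17RB as the tuft marker. The populations are called double-positive (Lgr5+ tuft marker+), Lgr5 single-positive (Lgr5+ tuft marker-), tuft single-positive (Lgr5- tuft marker+) and double-negative (Lgr5- tuft marker-), and values on all arrays are given in this order. Every population came from Lgr5CreERT2/+; Ctnnb1lox(ex3)/ox(ex3) mice (spelled as in the labels), 14 days past tamoxifen. No population without the Ctnnb1 allele or without tamoxifen is among the 4, so every value below comes from tumour tissue of this genotype. In this model the recombinase is produced where Lgr5 is active, so the allele is changed first in Lgr5-expressing cells. How many animals entered each sort, their age and sex, and the stretch of intestine are not given in the sources used here.

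With 1 array per population nothing could be tested, no p-value is given, and the number of arrays limits the precision. Levels are log2 intensities minus the array's 75th percentile, so that 0 is that percentile, and levels are compared between arrays for 1 probe, never between probes. The error beside a log2 difference is that of reading the spots, and it does not cover animals, sorts or labelling. A probe not well above background on 1 array of a pair gives a lower limit, written "at least", taken against the floor of that array or its own value where that is higher; the floors lay between -3.86 and -3.41. On the 4 arrays 60.0% to 68.8% of spots were well above background and no spot was saturated. The genes of the sort followed the labels. Il17rb stood at -0.38, -3.13, 0.12 and -4.70 in double-positive, Lgr5 single-positive, tuft single-positive and double-negative cells, not well above background on the last array. Lgr5 stood at -0.78, -0.80, -5.83 and -3.19 in the same order, not well above background in tuft single-positive cells. Epcam, the gene of the gate, stood at 5.02, 5.22, 4.52 and 5.56. In RNA of sorted pools, fewer cells of a type and less RNA per cell cannot be told apart.

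Alarmins are cytokines that barrier cells hold ready or release when damaged. IL-33, TSLP and IL-25 are known in the gut for acting on group 2 innate lymphoid cells, whose IL-13 signals back to epithelial cells through a receptor made of IL-4R alpha and IL-13R alpha 1 and expands tuft and goblet cells. IL-15 is presented on its own receptor chain to intraepithelial lymphocytes and natural killer cells, IL-7 sustains lymphocytes, and IL-18 is stored in epithelial cells as a precursor that inflammasome proteases cut. IL-1 alpha and IL-1 beta act through a shared receptor, and IL-1 beta is made above all by activated myeloid cells.

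The stretches just upstream of Il1a, Il1b and Il18 are shown. The first pair of genes carried the widest differences along the tuft marker and lie close to each other. Il18 was lower with the tuft marker within Lgr5-, a 2-fold count lost in some alternatives. RefSeq promoter sequences (build GRCm38.p6, 250 bases before the annotated start, 5′ to 3′ on the gene's strand) were at hand for 7 of the 10 genes. Capitals mark matches to any of 4 motifs, each searched on both strands in 32851 such windows of all genes. The TATA box, searched as TATAAA, was found in 12.4% of those windows. The AP-1 motif, searched as TGANTCA, was found in 6.75%, the NF-kB consensus in 7.25%, and the core of the PU.1 motif, searched as GAGGAA, in 23.3%. The window of Il1a lies at chr2:129309973-129310222 on the minus strand, that of Il1b at chr2:129371140-129371389 on the minus strand and that of Il18 at chr9:50554450-50554699 on the plus strand.
Il1a: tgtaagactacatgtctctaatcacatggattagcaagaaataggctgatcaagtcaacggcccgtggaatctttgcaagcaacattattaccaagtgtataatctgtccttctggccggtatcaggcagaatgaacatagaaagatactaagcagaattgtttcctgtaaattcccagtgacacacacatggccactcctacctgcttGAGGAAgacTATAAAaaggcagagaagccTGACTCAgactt
Il1b: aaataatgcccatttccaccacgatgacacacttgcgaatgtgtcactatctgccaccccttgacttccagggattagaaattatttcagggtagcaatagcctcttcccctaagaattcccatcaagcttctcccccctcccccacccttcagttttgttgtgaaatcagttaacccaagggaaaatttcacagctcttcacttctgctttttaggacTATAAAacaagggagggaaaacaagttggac
Il18: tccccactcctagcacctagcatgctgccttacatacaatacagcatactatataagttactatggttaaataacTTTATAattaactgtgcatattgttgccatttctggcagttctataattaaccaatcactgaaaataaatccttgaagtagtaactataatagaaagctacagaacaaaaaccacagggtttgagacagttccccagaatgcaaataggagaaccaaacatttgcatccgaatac
The Il1a window held a PU.1 core 41 to 36 bases before the start, a TATA box 32 to 27 bases before it and an AP-1 match 12 to 6 bases before it. The Il1b window held a TATA box 31 to 26 bases before the start and no match to the other 3 motifs. The Il18 window held a single TATA box match, on the other strand, 175 to 170 bases before the start. No matches overlapped. In the RefSeq gene table no protein-coding gene lies between Il1a and Il1b. These matches describe letters and are not measured binding.

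Across the 4 arrays Il1a and Il1b were higher with the tuft marker, both within Lgr5+ and within Lgr5-, Il15 stood apart on the double-positive array, and Il18 was lowest on the tuft single-positive array. Counting a difference of at least 2-fold, 3 genes (Il15, Il1a and Il1b) were higher and 0 lower in tuft marker+ cells within Lgr5+, where 10.4% of all 17501 measured genes were higher and 8.08% lower. Within Lgr5-, 3 genes (Il1a, Il1b and Il4ra) were higher and 1 (Il18) lower, beside 16.4% and 12.2% of 17911 genes. Both Il1a and Il1b were higher in both pairs, as were 4.77% of the 16757 genes measured in both, where 1.38% were lower in both. In Lgr5+ against Lgr5- cells, Il15 was higher and Il1b lower within the tuft marker+ class, beside 8.92% and 11.3% of 17625 genes. Within tuft marker- cells 0 genes were higher and 1 (Il1b) lower, beside 6.5% and 5.25% of 17527 genes. Il1b was therefore lower in both Lgr5 pairs, as were 0.582% of 16497 genes, with 0.727% higher in both. Each pair had 9 of the 10 genes with a difference. Their median was 0.85 in tuft marker+ against tuft marker- cells within Lgr5+ (0.01 over all genes) and 0.33 within Lgr5- (0.08 over all genes). For Lgr5+ against Lgr5- cells it was 0.11 within tuft marker+ (-0.04 over all genes) and -0.27 within tuft marker- (0.00 over all genes). The members were chosen with these values known, so nothing is read from the counts. The same shares over all genes stand beside the counts of list genes and cell type markers below, which are descriptions too. The pairs are not independent of one another, since each array enters 2 of them.

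**Figure D1:**
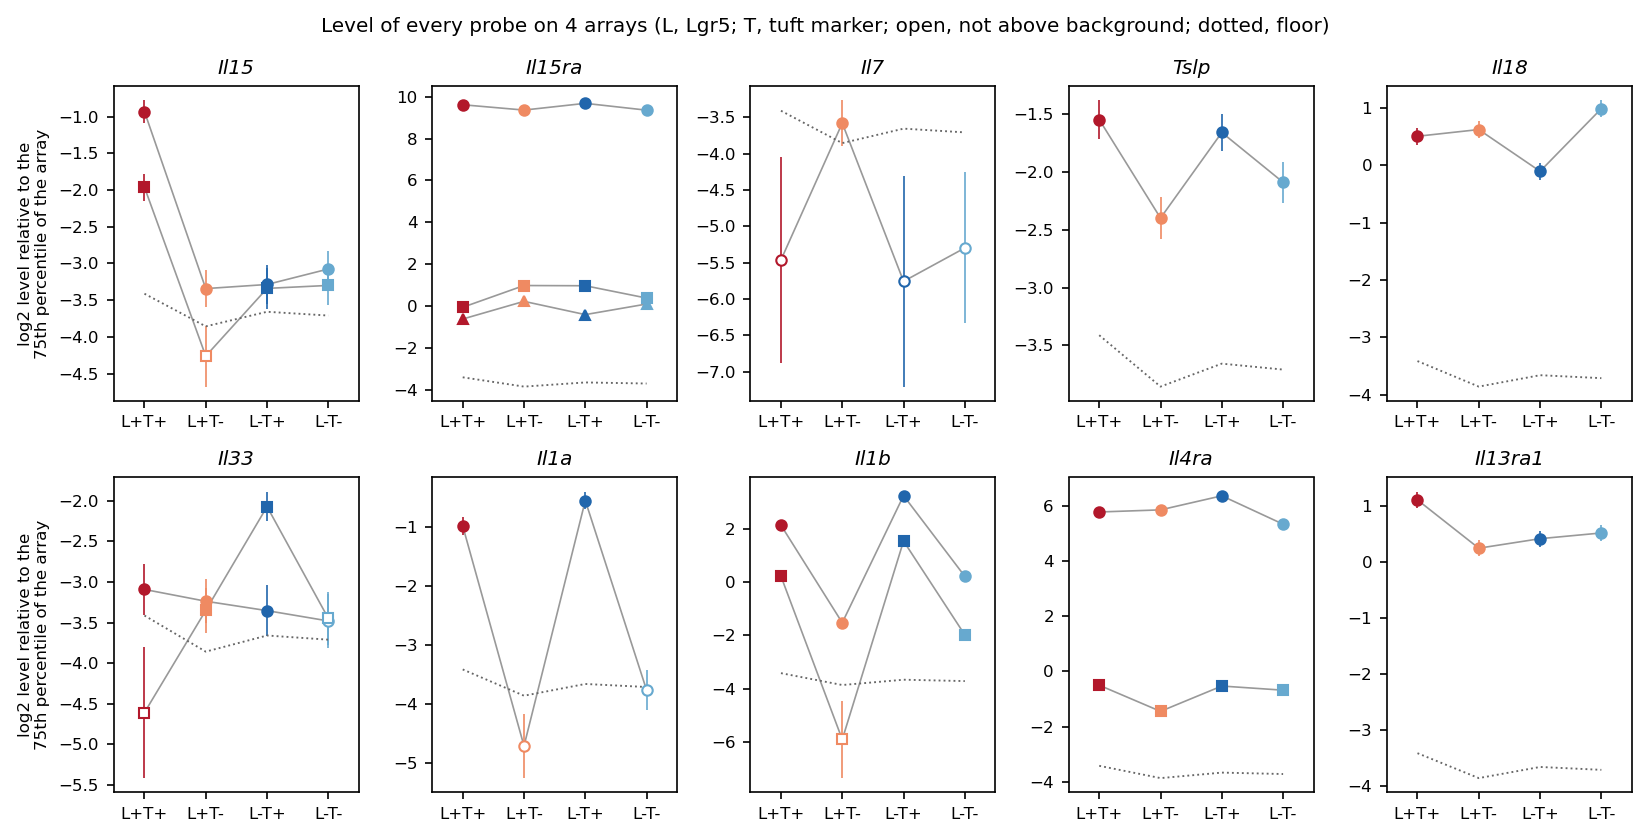
Level of each of the 16 probes (log2 intensity relative to the array's 75th percentile, vertical axis) on the 4 arrays (horizontal axis, in the order double-positive, Lgr5 single-positive, tuft single-positive, double-negative), 1 panel per gene and 1 line per probe; L stands for Lgr5 and T for the tuft marker, bars are the errors of reading, dotted lines the floors, and open symbols are probes not well above background. The Il1a and Il1b lines zigzag with the tuft marker, the Il15 lines stand high on the first array, and the brightest Il15ra probe runs almost level, between 9.36 and 9.69.

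Il15 codes for a cytokine that keeps intraepithelial lymphocytes and natural killer cells alive. Its brighter probe, A_66_P133150, stood at -0.93 in double-positive, -3.34 in Lgr5 single-positive, -3.29 in tuft single-positive and -3.08 in double-negative cells. The double-positive population was thus above the other 3, which lay within 0.27 of one another. Those 3 values were well above background but near the floors of their arrays, at -3.86, -3.66 and -3.71. So near the floor, signal over background limits any difference. Against Lgr5 single-positive cells the double-positive level of Il15 was 5.32-fold higher (log2 difference 2.41, error 0.29), and against tuft single-positive cells it was 5.12-fold higher (2.36, error 0.31). The other 2 pairs differed by less than their errors, at -0.21 (error 0.36) for the tuft marker within Lgr5- and -0.27 (error 0.35) for Lgr5 within tuft marker-. The second probe, A_55_P2744693, gave the same order of the double-positive cells, at -1.96, -4.26, -3.34 and -3.30, with the second value not well above background. By this probe Il15 was at least 3.72-fold higher with the tuft marker within Lgr5+ and 2.60-fold higher (1.38, error 0.33) with Lgr5 within tuft marker+. After another background correction (normexp) these differences of the brighter probe shrank to 1.17 and 0.90, so that the Lgr5 difference no longer reached 2-fold.

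Among the Il15 receptor genes, Il15ra codes for the alpha chain that carries IL-15 to neighbouring cells, and its 3 probes disagreed. Probe A_55_P2060707, which represents the gene as the brightest, stood at 9.62, 9.37, 9.69 and 9.36 in double-positive, Lgr5 single-positive, tuft single-positive and double-negative cells. It was nearly level, with differences of 0.25 and 0.33 (error 0.20 each) along the tuft marker within Lgr5+ and Lgr5-, and -0.07 and 0.00 along Lgr5 within tuft marker+ and tuft marker-. Probe A_52_P55902 stood at -0.06, 0.98, 0.97 and 0.38, lowest in the double-positive cells. By it, Il15ra was lower in tuft marker+ cells within Lgr5+ (-1.04, error 0.21) and higher within Lgr5- (0.59, error 0.21). Probe A_55_P2041738, at -0.63, 0.22, -0.41 and 0.09, was lower with the tuft marker, at -0.85 within Lgr5+ and -0.51 within Lgr5- (error 0.21 each). No direction is given for the gene as a whole. Probe A_55_P2060707 read 94496 to 115462 intensity units, and A_55_P2041738, assigned to the same transcript, 84.3 to 204. Whether the brightest probe, which stands for Il15ra in the counts and medians, reads this gene was not tested. Of 7 IL-15 receptor partners and signalling genes measured in each pair, 1 was at least 2-fold higher and 0 lower in tuft marker+ cells within Lgr5+ and again within Lgr5-. In both it was Il2rb, the beta chain shared by the IL-2 and IL-15 receptors, which stood at -1.69 and -3.23 in double-positive and Lgr5 single-positive cells and at -0.31 and -2.83 in tuft single-positive and double-negative cells. Its differences were 1.54 (error 0.31) and 2.52 (error 0.27), both past 2-fold. Il2rb fell short of 2-fold within Lgr5+ after normexp background correction (0.68). With the mean of its 2 probes it did so in both classes (0.65 and 0.65). The differences past 2-fold thus rest on the brighter Il2rb probe, and the levels of the other probe are not given here. T and NK cell markers, a class of cells that uses Il2rb, were at least 2-fold higher with the tuft marker for 1 of 8 measured genes within Lgr5+ and 4 of 10 within Lgr5-, with 0 lower in either. Over all genes 10.4% and 16.4% were higher in these pairs. The median difference of the T and NK markers was -0.23 within Lgr5+ and 0.85 within Lgr5-. Of 12 such markers 5, 7, 10 and 6 were well above background on the 4 arrays, Cd3d and Klrd1 on none, and the part of such cells in the Il2rb values was not tested. Along Lgr5, 1 list gene was higher and 1 lower within tuft marker+, and 0 were either way within tuft marker-.

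Il7, a lymphocyte growth factor, stood at -5.46, -3.58, -5.76 and -5.30 in double-positive, Lgr5 single-positive, tuft single-positive and double-negative cells. It was well above background in Lgr5 single-positive cells alone of the 4, and there it lay so near the floors that no difference of 2-fold could be shown, with at least 0.13 for Lgr5+ against Lgr5- within tuft marker- cells. Tslp, the gene of an epithelial alarmin that acts on dendritic and innate lymphoid cells, stood at -1.55, -2.40, -1.66 and -2.09 in the same order. Both tuft marker+ arrays lay above both tuft marker- arrays, by 0.85 (error 0.25) within Lgr5+ and 0.43 (error 0.24) within Lgr5-, neither reaching 2-fold. Along Lgr5 the Tslp differences were 0.11 and -0.31 within tuft marker+ and tuft marker-, and the first turned to -0.06 with the authors' scaled values. Of the 3 receptor genes of these cytokines, 1 was at least 2-fold higher in tuft marker+ cells in each Lgr5 class and 0 were lower. This was Il7r, a chain shared by the receptors of IL-7 and TSLP, at -1.19 and -2.90 in double-positive and Lgr5 single-positive cells and -0.22 and -3.66 in tuft single-positive and double-negative cells. Il7r thus differed by 1.71 (error 0.26) within Lgr5+ and 3.44 (error 0.35) within Lgr5-, and after normexp its difference within Lgr5+ was 0.91, short of 2-fold. Il7r is also a marker of innate lymphoid cells and belongs to a list of innate lymphoid and mast cell genes. In each Lgr5 class 4 of 8 measured genes were at least 2-fold higher in tuft marker+ cells: Il7r itself, Rora, Il1rl1 and Hdc. In each class 1 was lower, Fcer1a among Lgr5+ cells (-1.32) and Areg among Lgr5- cells (-1.81). Gata3 stayed short of 2-fold, at 0.52 for the Lgr5+ pair and 0.29 for the Lgr5- pair. The mast cell genes Cpa3, Mcpt1 and Mcpt2 were not well above background on any array, while Fcer1a and Hdc were on all 4. What part such cells have in the Il7r values was not tested.

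Il18, the precursor cytokine stored in the epithelium, stood at 0.51 in double-positive, 0.62 in Lgr5 single-positive, -0.10 in tuft single-positive and 0.99 in double-negative cells. Against double-negative cells its tuft single-positive level was 2.13-fold lower (-1.09, error 0.21), and along the tuft marker within Lgr5+ the difference was smaller than its error (-0.12, error 0.21). The 2-fold count for Il18 was lost after normexp (-0.90), with the 75th percentile of detected probes alone (-0.98) and with the authors' scaled values (-0.80). Along Lgr5 the Il18 differences were 0.61 (error 0.21) within tuft marker+ and -0.36 (error 0.20) within tuft marker-. Epithelial markers moved with Il18 within Lgr5-, where their median difference was -0.85, with 4 of 12 at least 2-fold lower and 1 higher in tuft marker+ cells, and within Lgr5+ the median was 0.14 with 2 of 12 higher and 0 lower. All 12 were well above background on every array, and their part in the Il18 result was not tested.

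Partners of Il18 did not run one way. Within Lgr5-, the inflammasome genes Nlrp6 (-0.88), Nlrc4 (-0.77) and Pycard (-0.76) were lower in tuft marker+ cells, short of 2-fold. In the same pair the inflammasome gene Nlrp3 (1.26, error 0.21) and the receptor gene Il18r1 (at least 1.40) were higher, past 2-fold. All of these were named after their values were seen. Of the IL-18 receptor and inflammasome genes, 2 of 11 measured were at least 2-fold higher in tuft marker+ cells within Lgr5+ and 4 of 12 within Lgr5-, with 0 lower in either, while the medians over the list were 0.13 and -0.17. Higher in both were Il18bp, which codes for a secreted protein that binds and blocks IL-18, and Nek7, a kinase gene needed for the NLRP3 inflammasome. Il18bp stood at 1.69 and 0.48 in double-positive and Lgr5 single-positive cells, and at 2.12 and 0.58 in tuft single-positive and double-negative cells, which gave 1.22 (error 0.20) and 1.54 (error 0.20). Nek7 differed by 1.05 (error 0.21) within Lgr5+ and 1.61 (error 0.21) within Lgr5-. After normexp both fell short of 2-fold within Lgr5+, at 0.995 for Il18bp and 0.63 for Nek7, and with the mean of its probes Nek7 did so within Lgr5- (0.89). Along Lgr5, 0 of 12 genes were higher and 1 lower within tuft marker+, while 0 of 11 were either way within tuft marker-.

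**Figure D2:**
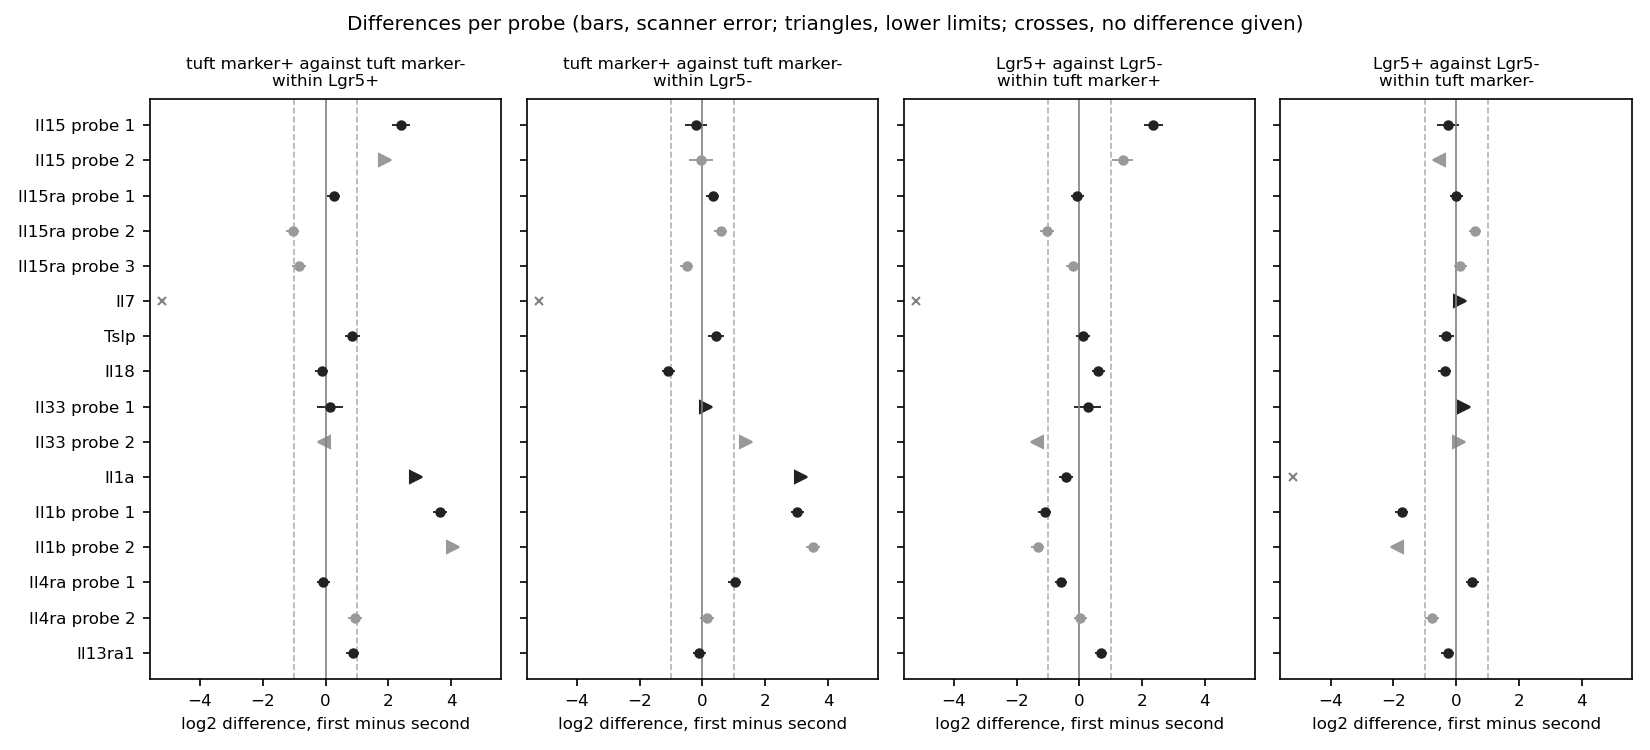
Log2 difference of every member probe in the 4 pairs of arrays, 1 panel per pair, with bars for the error of reading the spots triangles for lower limits and crosses where no difference is given; black marks are the probes that represent a gene, probes are numbered from the brightest down, and dashed lines are 2-fold. In tuft marker+ against tuft marker- cells the Il1b probes lie between 3.02 and at least 4.07 in both pairs, and both Il15 probes are past 2-fold within Lgr5+ and near 0 within Lgr5-.

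Il33, the nuclear alarmin of epithelial and stromal cells, was close to background, and its 2 probes differed. Probe A_55_P2614900, the brighter, stood at -3.09, -3.24, -3.35 and -3.48 in double-positive, Lgr5 single-positive, tuft single-positive and double-negative cells, the last not well above background, and its largest measured difference was 0.26 (error 0.44), along Lgr5 within tuft marker+. Probe A_55_P1964960 stood at -4.61, -3.35, -2.07 and -3.45, not well above background on the first and the last array. By that probe Il33 was at least 2.60-fold higher in tuft single-positive than in double-negative cells, and at least 2.53-fold lower in double-positive than in tuft single-positive cells. The highest value of that probe was on the tuft single-positive array, where all 12 fibroblast and smooth muscle markers were well above background, against 8, 8 and 7 of 12 on the double-positive, Lgr5 single-positive and double-negative arrays. The stromal genes Lum, Pdgfra, Pdgfrb and Des were well above background on that array alone. Of the 12 markers, 8 were at least 2-fold higher there than in double-negative cells and 0 lower. Not all of them peaked there. Acta2 was lowest on that array, at 4.86, 4.94, 4.52 and 5.32 in the order of arrays. Tagln (2.25, 2.09, 2.12 and 1.93) was nearly level and highest in double-positive cells, as was Myh11. The part of stromal cells in the Il33 values was not tested.

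Il1a and Il1b showed the widest differences of the 10 genes. Il1a, coding for an alarmin active without cleavage, stood at -0.98 in double-positive and -4.71 in Lgr5 single-positive cells, and at -0.56 in tuft single-positive and -3.76 in double-negative cells. Il1a passed the background flag on both arrays with the tuft marker, and on neither array without it. The tuft marker+ level was at least 7.32-fold higher (at least 2.87) within Lgr5+ and at least 8.90-fold higher (at least 3.15) within Lgr5-. Between the tuft marker+ populations Il1a differed by -0.43 (error 0.21) in Lgr5+ against Lgr5- cells. After normexp the tuft marker differences were 1.30 and 1.21.

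Il1b, the gene of the inflammasome-processed IL-1, was read by probe A_51_P212782 at 2.13 in double-positive and -1.52 in Lgr5 single-positive cells, and at 3.24 in tuft single-positive and 0.21 in double-negative cells. The order of the 4 populations was tuft single-positive, double-positive, double-negative and Lgr5 single-positive, and each step was at least 1.11 wide. Along the tuft marker Il1b was 12.6-fold higher in tuft marker+ cells within Lgr5+ (3.65, error 0.21) and 8.13-fold higher within Lgr5- (3.02, error 0.21). In Lgr5+ against Lgr5- cells it was 2.15-fold lower within tuft marker+ (-1.11, error 0.20) and 3.33-fold lower within tuft marker- (-1.74, error 0.22). The second probe, A_66_P114500, stood at 0.22, -5.90, 1.54 and -1.98, with the second value not well above background. It ran the same way, at least 16.8-fold higher with the tuft marker within Lgr5+ and 11.4-fold within Lgr5-, and 2.49-fold lower with Lgr5 within tuft marker+ and at least 3.67-fold lower within tuft marker-. When the arrays were scaled to the median, the Lgr5 difference of Il1b within tuft marker+ was -0.89 and no longer reached 2-fold.

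Myeloid markers moved with Il1a and Il1b. Of 18 macrophage and monocyte genes, 13 passed 2-fold upwards and 0 downwards in tuft marker+ cells within Lgr5+, and 15 upwards and 0 downwards within Lgr5-. Their median level was 2.41, -1.98, 3.30 and -1.21 in double-positive, Lgr5 single-positive, tuft single-positive and double-negative cells, the same order of populations as Il1b on the tuft marker and on Lgr5. In Lgr5+ against Lgr5- cells 0 of 18 were higher and 8 lower within tuft marker+, and 2 of 17 higher and 5 lower within tuft marker-. The summed signal of the 18, in units of the array's 75th percentile, was 762, 547, 839 and 621 in that order of arrays, most of it from Itgam and Csf1r, whose probes were bright and varied by less than 0.5. Without these 2, a choice made after seeing the values, it was 91.0, 14.4, 163 and 11.9. Above background were 18, 14, 18 and 16 of the 18, with Adgre1, C1qa, C1qc and Itgax missing in Lgr5 single-positive cells and Itgax and Mrc1 in double-negative cells. The part of myeloid cells in the Il1a and Il1b values was not tested, and the EpCAM+ gate of the labels applies to all 4 populations. Of 14 tuft cell markers measured within Lgr5+, 12 were at least 2-fold higher in tuft marker+ cells, and 13 of 15 within Lgr5-, and fibroblast and smooth muscle markers were higher for 5 of 8 measured within Lgr5+ and 8 of 12 within Lgr5-, with 0 lower and medians of 2.26 and 3.02. Tuft, myeloid and stromal markers thus moved along the same axis as Il1a and Il1b, and the part of stromal cells in these values was not tested either.

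**Figure D3:**
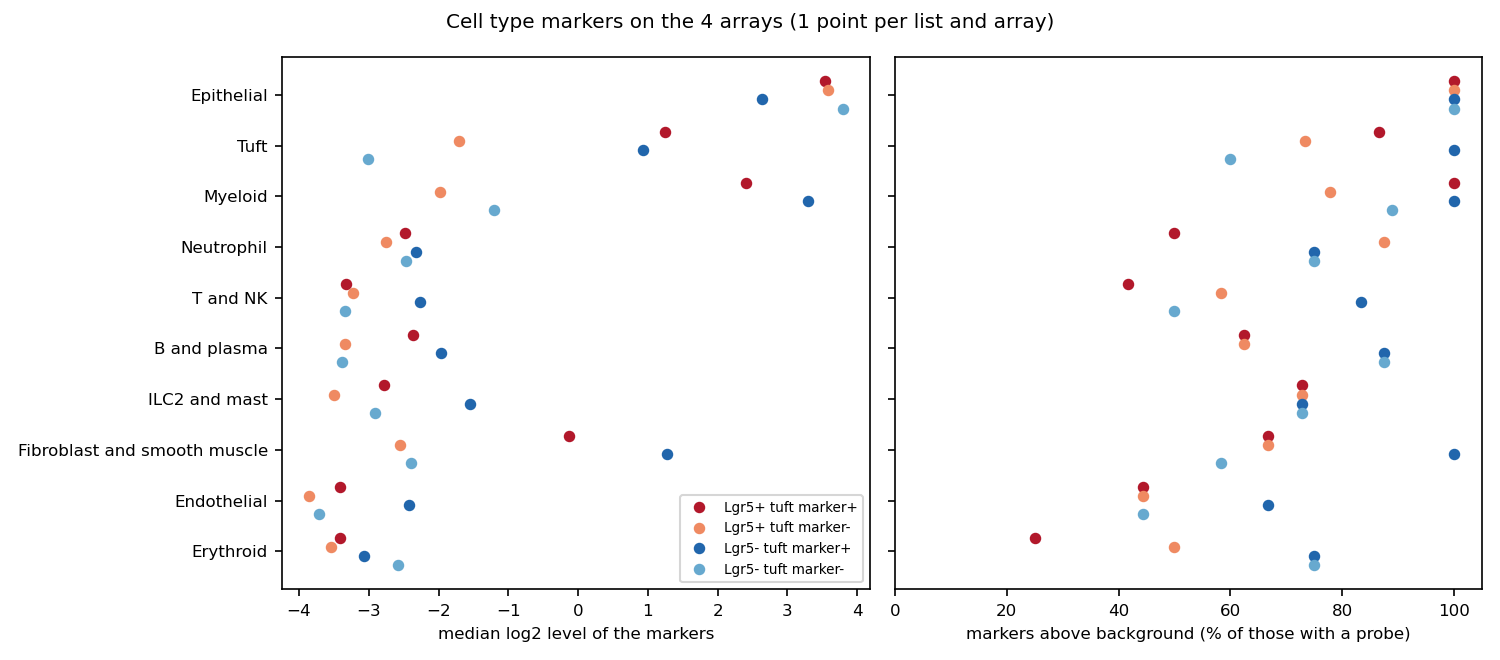
Marker genes of 10 cell types on the 4 arrays: median level of each list (left, log2 intensity relative to the array's 75th percentile) and share of its genes well above background (right, percent), 1 symbol per population. Tuft and myeloid medians are higher in both tuft marker+ populations (myeloid 2.41 and 3.30, against -1.98 and -1.21 in tuft marker- cells), and all epithelial genes are above background in every population.

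The IL-1 and IL-33 receptor, antagonist and signalling list held 5 of 16 measured genes at least 2-fold higher and 0 lower in tuft marker+ cells within Lgr5+, and 4 of 16 higher and 1 lower within Lgr5-, with medians of 0.28 and 0.41. Il1rn, the gene of the receptor antagonist that blocks IL-1, stood at 1.47 and -2.13 in double-positive and Lgr5 single-positive cells, and at 2.09 and -1.49 in tuft single-positive and double-negative cells. It differed by 3.60 (error 0.23) and 3.58 (error 0.22), a 12.1-fold and an 11.9-fold difference, so agonist and antagonist genes were both higher with the tuft marker, the axis on which the myeloid markers above also differed. Il1r2, the decoy receptor gene, differed by 1.53 (error 0.31) and 2.07 (error 0.24), and Il1rl1, the gene of the IL-33 receptor ST2, by 1.38 and 1.26 (error 0.21 each). Both fell short of 2-fold within Lgr5+ after normexp (Il1r2 0.68, Il1rl1 0.91) and with the mean of probes (0.76 and 0.52), as did Il1rl1 within Lgr5- (0.78 and 0.90). Il1r1, the signalling receptor of IL-1, was named after its values were seen: it was well above background in tuft single-positive cells alone, at -1.31, against -5.63 in double-negative cells, which gave at least 2.40. Along Lgr5, 1 of 16 genes was higher and 3 lower within tuft marker+, and 2 of 16 higher and 0 lower within tuft marker-.

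Il4ra and Il13ra1 code for both chains of the type 2 receptor that lets epithelial cells respond to IL-4 and IL-13. Il4ra probe A_55_P1966189, the brighter, stood at 5.77, 5.85, 6.36 and 5.33 in double-positive, Lgr5 single-positive, tuft single-positive and double-negative cells, highest in tuft single-positive cells. By it Il4ra was 2.04-fold higher in tuft marker+ cells within Lgr5- (1.03, error 0.20) and level within Lgr5+ (-0.08, error 0.20). Along Lgr5 it was lower within tuft marker+ (-0.59, error 0.20) and higher within tuft marker- (0.52, error 0.20). Probe A_51_P464478 gave another order, at -0.50, -1.44, -0.53 and -0.68, with 0.95 (error 0.22) within Lgr5+ and 0.15 (error 0.21) within Lgr5- along the tuft marker. The brighter probe read 5778 to 10990 intensity units, and A_51_P464478, assigned to the same transcript, 64.4 to 93.2. Whether the brighter probe, which stands for Il4ra in the counts and medians, reads this gene was not tested. The 2-fold count of Il4ra was lost with the mean of both probes (0.59), after scaling to the median (0.79) and after normexp (0.997). Il13ra1 stood at 1.11, 0.25, 0.42 and 0.52, highest in the double-positive cells. Its differences along the tuft marker were 0.86 (error 0.21) within Lgr5+ and -0.10 (error 0.21) within Lgr5-, which became 0.19 with the authors' scaled values, and along Lgr5 0.69 (error 0.21) within tuft marker+ and -0.27 (error 0.21) within tuft marker-. So neither chain was 2-fold apart in a way shared by both pairs of an axis.

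Of the IL-4 and IL-13 ligands, other receptors and signalling genes, 0 of 8 measured were at least 2-fold apart in tuft marker+ against tuft marker- cells within Lgr5+, and 0 were higher and 1 lower of 8 within Lgr5-. Along Lgr5, 0 of 7 were so within tuft marker+, and within tuft marker- 0 of 8. Il4 was not well above background on any array and Il13 was nearly level, at -1.29, -1.70, -1.39 and -1.47, both named after their values were seen. Genes that IL-4 and IL-13 are known to induce did not run one way, with 4 of 10 higher and 2 lower in tuft marker+ cells within Lgr5+, and 4 higher and 3 lower of 10 within Lgr5-. Those higher in both classes are known from macrophages: Retnla (at least 5.87 and at least 1.79), Chil3 (1.78 and 2.13) and the chemokine gene Ccl24 (1.62 and at least 4.79), beside the 13 and 15 of 18 myeloid markers given above, whose part was not tested. After normexp Chil3 (0.96) and Ccl24 (0.56) fell short of 2-fold within Lgr5+, and Retnla (at least 0.53) within Lgr5-. Those lower in both are goblet cell genes, Retnlb at -1.85 and -2.15 and Clca1 at -2.27 and -1.33. Along Lgr5, 5 of 10 were higher and 3 lower within tuft marker+, and 2 of 8 higher and 0 lower within tuft marker-. Higher in both were Retnlb (2.09 and 1.79) and Ang4, an antimicrobial ribonuclease gene (2.18 and 2.61).

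**Figure D4:**
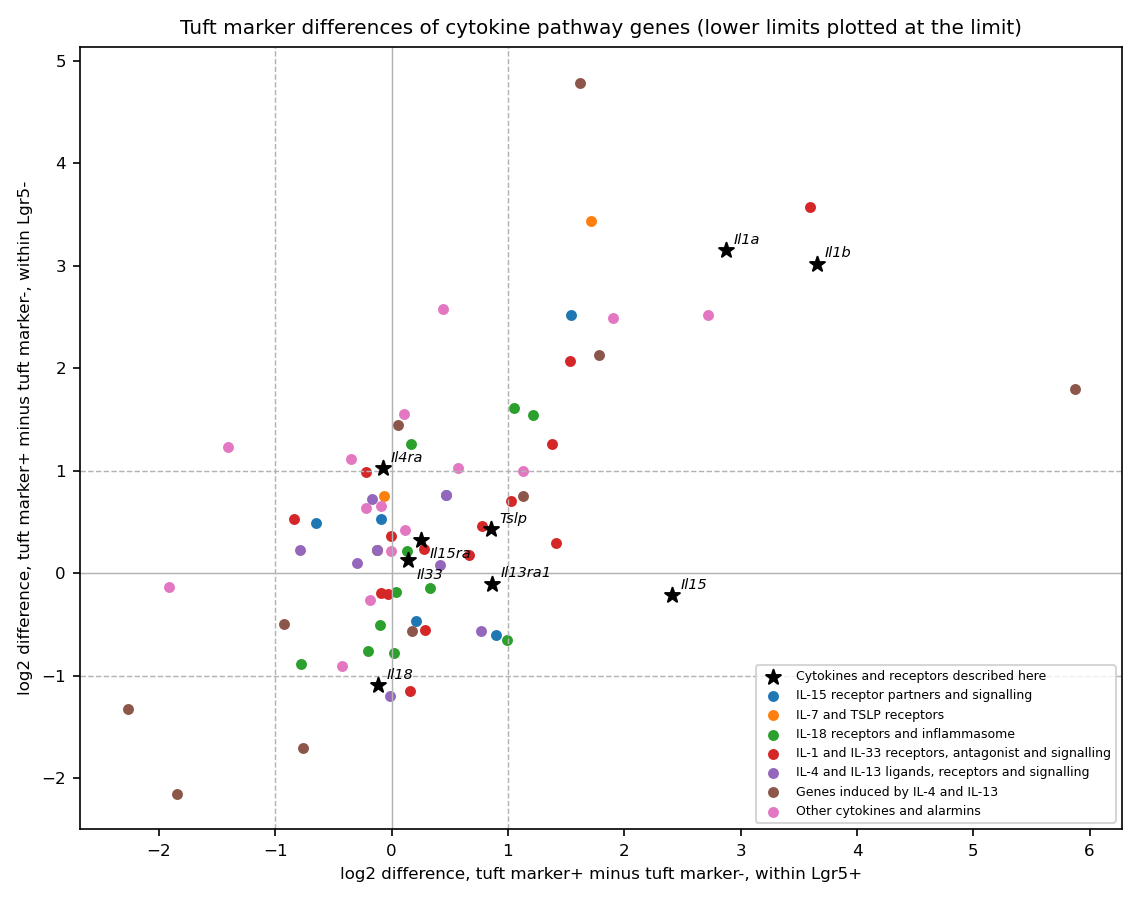
Log2 difference in tuft marker+ against tuft marker- cells within Lgr5+ (horizontal axis) and within Lgr5- (vertical axis) for the members (stars; Il7 had no difference and is not drawn) and the genes of the pathway lists with a difference in both pairs; dashed lines are 2-fold, and a difference that is a lower limit is drawn at that limit. Il1a and Il1b lie beyond 2-fold on both axes next to Il1rn (3.60 and 3.58), while Il15 (2.41 and -0.21) and Il18 (-0.12 and -1.09) lie off the diagonal.

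Among 24 other cytokines and alarmins, 3 of 16 measured were at least 2-fold higher and 2 lower in tuft marker+ cells within Lgr5+, and 9 of 19 higher and 0 lower within Lgr5-, with medians of -0.05 and 0.997. Higher in both, by the probe that represents each gene, were Ebi3, a subunit shared by IL-27 and IL-35 (at least 2.72 and 2.52), and Tgfb1, a growth factor gene that also damps immune responses (at least 1.90 and at least 2.50). Ebi3 stayed past 2-fold in every alternative, while Tgfb1 after normexp was at least 0.84 and at least 0.89, and 0.73 within Lgr5+ with the mean of its probes. The 2 Tgfb1 probes disagreed within Lgr5+: probe A_66_P135688, which represents the gene, stood at -1.95 in double-positive and -4.69 in Lgr5 single-positive cells, and probe A_51_P390715 at -3.74 and -2.47. By the second probe Tgfb1 was not higher in double-positive cells, and no direction is given for the gene within Lgr5+. Il25, the tuft cell alarmin that binds IL17RB, was named after its values were seen and stood at -3.87, -4.46, -2.57 and -2.98 in double-positive, Lgr5 single-positive, tuft single-positive and double-negative cells. It was not well above background on either Lgr5+ array, and it differed by 0.41 (error 0.34) with the tuft marker within Lgr5-. Along Lgr5, 0 of 19 were higher and 7 lower within tuft marker+, and 2 higher and 2 lower of 17 within tuft marker-. Lower in both was S100a9, a neutrophil and macrophage alarmin gene, at -2.53 (error 0.21) and -1.08 (error 0.21), the second -0.66 after normexp and so short of 2-fold.

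Likeness of profile was measured as the Euclidean distance between levels centred on their mean over the 4 arrays, among the 14054 genes well above background on all of them. It was computed for the 3 members with the widest range there, Il1b (4.76), Il15 (2.41) and Il18 (1.09). Closest to Il1b were Fnbp1, at a distance of 0.26, the interferon-induced GTPase gene Gbp2, at 0.33, and Ptgs2, the inducible cyclooxygenase gene, at 0.36. Ptgs2 stood at 0.50, -3.18, 1.44 and -1.87 in double-positive, Lgr5 single-positive, tuft single-positive and double-negative cells. Closest to Il15 were Rit1, a small GTPase gene, at 0.19, Prph, a neuronal intermediate filament gene, at 0.20, and Aldh6a1, a mitochondrial dehydrogenase gene, at 0.22. Rit1 stood at 0.83, -1.39, -1.30 and -1.09, high in the double-positive cells as Il15 was. Closest to Il18 were Gpr160 at 0.05, Dnajc15 at 0.06 and Hirip3 at 0.06. With 4 arrays and 14054 genes close profiles are easily found, so these distances are a description.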

How the data were processed

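Cy3 intensities of 4 arrays, 1 per sorted population, were used. Per the file headers, Agilent Feature Extraction 12.0.3.1 subtracted the background from the deposited intensity values and detrended them, without scaling arrays to each other. Version 11.5.1.1 is the one in the submitters' processing notes. The deposited flags (a score of 0 or 1) mark spots well above background and outliers. The authors' table of processed intensity values was, from the values themselves, the same signal times 1 constant per array (10.9, 7.82, 11.9 and 9.08 in the order of the report), linear and not centred, with column medians of 279, 286, 365 and 253. It has no direction, being 1-colour.

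Of 62976 spots per array, 3671 controls and 91 to 122 outliers were left out. Log2 intensity minus the array's 75th percentile is the level, and the lowest level of a probe well above background is the array's floor. Probes were named through their accession and a RefSeq table (GRCm38.p6): 32994 of 56605 probes, 22911 genes. The probe with the highest mean level represents a gene, which is above background where any probe is. All 16 member probes are spotted once, and among 300 probes spotted 10 times the median SD of copies was 0.05 to 0.06. All arrays lay on 1 slide with 1 scan time, so neither separates the populations.

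A gene was counted at 2-fold or more in a pair if above background on at least 1 array. The members and lists were chosen with earlier results of these data known. Named were the 10 members and up to 3 genes per list and direction past 2-fold in both pairs of an axis. By the same rule some of the leading cell type markers, the 3 nearest profiles of 3 members, and Lgr5 and Il17rb were named. Other pathway genes are said, where they stand, to be named after their values were seen. Other cell type markers were also named after their values were seen, without a word at each place. Alternatives were normexp with an offset of 50, other scalings, quantile normalization, the authors' scaled values, the mean of probes, another detection flag, no detection filter, and 1.5-fold. In place of the mean spot signal planned for normexp, the median spot signal was used, with the median background. R 4.3.3, limma 3.58.1, Python 3.11.15, pandas 2.3.3, numpy 2.4.6 and matplotlib 3.10.9 were used, and the counting step was tested on simulated data.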

Additional observations from a re-analysis of the deposited data

Results flagged for a closer look

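Probe A_52_P55902 of Il15ra went opposite ways in the 2 pairs of each axis, by more than 2 errors of reading in each. In tuft marker+ against tuft marker- cells it was -1.04 within Lgr5+ and 0.59 within Lgr5-. In Lgr5+ against Lgr5- cells its differences were -1.03 with the tuft marker and 0.60 without it. Probe A_55_P1966189 of Il4ra went opposite ways along Lgr5, at -0.59 within tuft marker+ and 0.52 within tuft marker-. With 1 array per population neither difference between the pairs was tested, and the other probes of these genes did not do so by more than 2 errors.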

How the results depend on the processing

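Leaving out a replicate was not possible with 1 array per population. No paired analysis was possible because each population has 1 array and the labels give no replicate numbers. With a 1.5-fold threshold, 5 genes in place of 3 were higher in tuft marker+ cells within Lgr5+, and in Lgr5+ cells within tuft marker+ 3 in place of 1 were higher and 2 in place of 1 lower. The share of all genes past 1.5-fold was not taken, so nothing is read from these counts. With the other detection flag or with no filter, Il7 made 1 gene lower in tuft marker+ cells within Lgr5+ and 1 higher in Lgr5+ cells within tuft marker-, and 15 in place of 8 pathway genes were past 2-fold for Lgr5 within tuft marker-. After normexp 0 genes were higher in Lgr5+ cells within tuft marker+ and 0 lower in tuft marker+ cells within Lgr5-. Pathway genes past 2-fold were then 6 in place of 20 and 14 in place of 28 along the tuft marker (Lgr5+, Lgr5-), and 7 in place of 22 and 2 in place of 8 along Lgr5 (tuft marker+, tuft marker-). Il18 was also no longer counted (0 genes lower) with the 75th percentile over detected probes and with the authors' scaled values, and Il1b within tuft marker+ (0 lower) with scaling to the median. The normexp setting adds an offset of 50 units to every signal, which by itself narrows log2 differences, most of all for dim probes. The brighter Il15 probe, for example, read 68.2 units in double-positive and 13.7 in tuft single-positive cells. A gene falling short of 2-fold after normexp is therefore partly a property of that setting. How much of the normexp changes the offset accounts for, and the cause of the other changes, were not tested.

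Of the member differences, 8 of 36 moved by more than about 2 errors of reading (0.21 each where a lower limit has none) with the mean of probes, 7 of 33 after normexp and 2 of 36 with either filter setting, and 0 with the other 4 settings. Signs turned in 5 with the mean of probes, 3 each with scaling to the median and the authors' values, 2 with quantile normalization, and 1 each after normexp and with the 75th percentile over detected probes. Il1a, Il1b and Il15 within Lgr5+ and Il1a and Il1b within Lgr5- stayed at least 2-fold higher with the tuft marker in every alternative. Tgfb1 within Lgr5+ turned to at least 0.80 lower (-0.80) with quantile normalization, where the other of its 2 probes became the brighter.

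Over all genes, 1815 were higher and 1414 lower with the tuft marker within Lgr5+ (664 and 248 after normexp, 2811 lower without a filter), and 2946 and 2187 within Lgr5- (949 and 785 after normexp, 3421 lower with scaling to the median, 4461 and 1144 with the authors' values). Along Lgr5 they were 1572 and 1997 within tuft marker+ (381 and 387 after normexp, 2594 and 1275 with scaling to the median, 3741 lower without a filter), and 1140 and 920 within tuft marker- (132 and 165 after normexp, 2326 and 1709 without a filter). The share of these that were higher was 56.2% for the tuft marker within Lgr5+ (72.8% after normexp), 57.4% within Lgr5- (37.2% scaled to the median, 79.6% with the authors' values), 44.0% for Lgr5 within tuft marker+ (67.05% and 28.0%) and 55.3% within tuft marker- (41.2% scaled to the median, 44.4% after normexp). The median of all genes in the 4 pairs, 0.01, 0.08, -0.04 and 0.00, became 0.11, -0.16, 0.18 and -0.11 with scaling to the median. For the tuft marker within Lgr5- and Lgr5 within tuft marker+ it became 0.37 and -0.21 with the authors' values, and for the tuft marker within Lgr5- 0.19 with the 75th percentile over detected probes. Il7, Il33 and the dimmer Il15 probe lay near the floors, and so did the brighter Il15 probe outside double-positive cells. There signal over background limits any difference.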
